A study of Mus musculus with 4 samples.

Results

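The endoplasmic reticulum (ER) genes described here are 45 genes for protein translocation, folding, quality control and the unfolded protein response, chosen by name: a probe belonged to the set if its gene name in the scanner files was 1 of the 45. They fall into 11 ER chaperones and cofactors, 6 enzymes of oxidative folding, 14 parts of the translocon and signal peptidase, 2 proteins of the COPII coat, 8 of ER-associated degradation and 4 stress sensors and feedback genes. All 45 had a probe on the array, and 43 could be tested, out of 20544 genes tested in all. The exceptions were Canx and Spcs1, whose spots the scanner software had marked as outliers on both control arrays. The RNA was that of splenocytes (female C57BL/6 mice, aged 8 weeks) kept for 72 h with IL-4 and LPS, which make B cells divide, switch antibody class and begin to secrete antibody. Imatinib, which blocks ABL, KIT and PDGFR kinases, was added at 10 µM in 1 group, and the control group had the same medium without it. There were 2 Agilent 1-colour arrays per group. Nothing in the labels tells if these came from different mice or different cultures, so p-values measure the spread between these samples only. The cells are a mixture, so that fewer cells of a type and less RNA per cell cannot be told apart.

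A protein made for secretion or for a membrane enters the ER through the SEC61 channel, loses its signal peptide to the signal peptidase, and is folded by chaperones such as BiP and by disulfide isomerases. Molecules that fail to fold are pulled back to the cytosol and degraded. When unfolded protein builds up, the sensors ATF6, IRE1 (encoded by Ern1) and PERK (encoded by Eif2ak3) start the unfolded protein response, in which the transcription factors ATF6, XBP1 and ATF4 raise folding and degradation genes, and PERK slows translation through eIF2. Activated B cells that turn into antibody-secreting cells enlarge their ER, and XBP1 is required for that.

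Each array carried 43020 spots for 39429 probes. Between 25018 and 26762 probes per array were well above background. No probe was saturated, and all 4 arrays lay on 1 slide. The number of arrays limits the precision: an exact permutation test of 2 arrays against 2 cannot give a two-sided p below 0.333, so single genes were tested with limma, a linear model fitted across all 25375 probes tested. Levels are log2 signals minus that of each array's 75th percentile, and a difference is imatinib minus control on that log2 scale, so that -1 would be a 2-fold fall. A gene was called changed at an adjusted p under 0.05 (limma, Benjamini-Hochberg), and it is represented by its brightest tested probe. Signals of different probes do not give the order of their RNAs.

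With imatinib, 25 of the 43 ER genes tested were lower, 0 were higher and 18 did not pass. Across the array 21.7% of genes were called lower and 19.5% higher. The median difference of the ER genes was -0.34 and that of all genes tested was 0.011, with single ER genes between -0.76 (Dnajc3) and 0.29 (Edem1). At an unadjusted p under 0.05 the count was 30 lower and 1 higher (Edem1), beside 26.7% lower and 24.1% higher of all genes, and Edem1 was called higher under 3 alternative settings, normexp background correction (0.28), quantile normalization (0.37) and a variance model with trend (0.29). Both imatinib arrays lay below both control arrays for 37 of the 43 genes, where 37.2% of all genes did so, and above them for 3 (Edem1, Eif2ak3 and Ppp1r15a), where 35.5% of all genes did. The differences were moderate: 9 ER genes were called lower by at least 0.5, as were 8.49% of all genes, and the greatest was 1.70-fold. Summed over the 43 genes, the linear signal came to 936 and 927 times the 75th percentile with imatinib and to 1178 and 1153 times in control. The brightest probes weigh most in such sums, here and for the marker lists below.

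**Figure D1:**
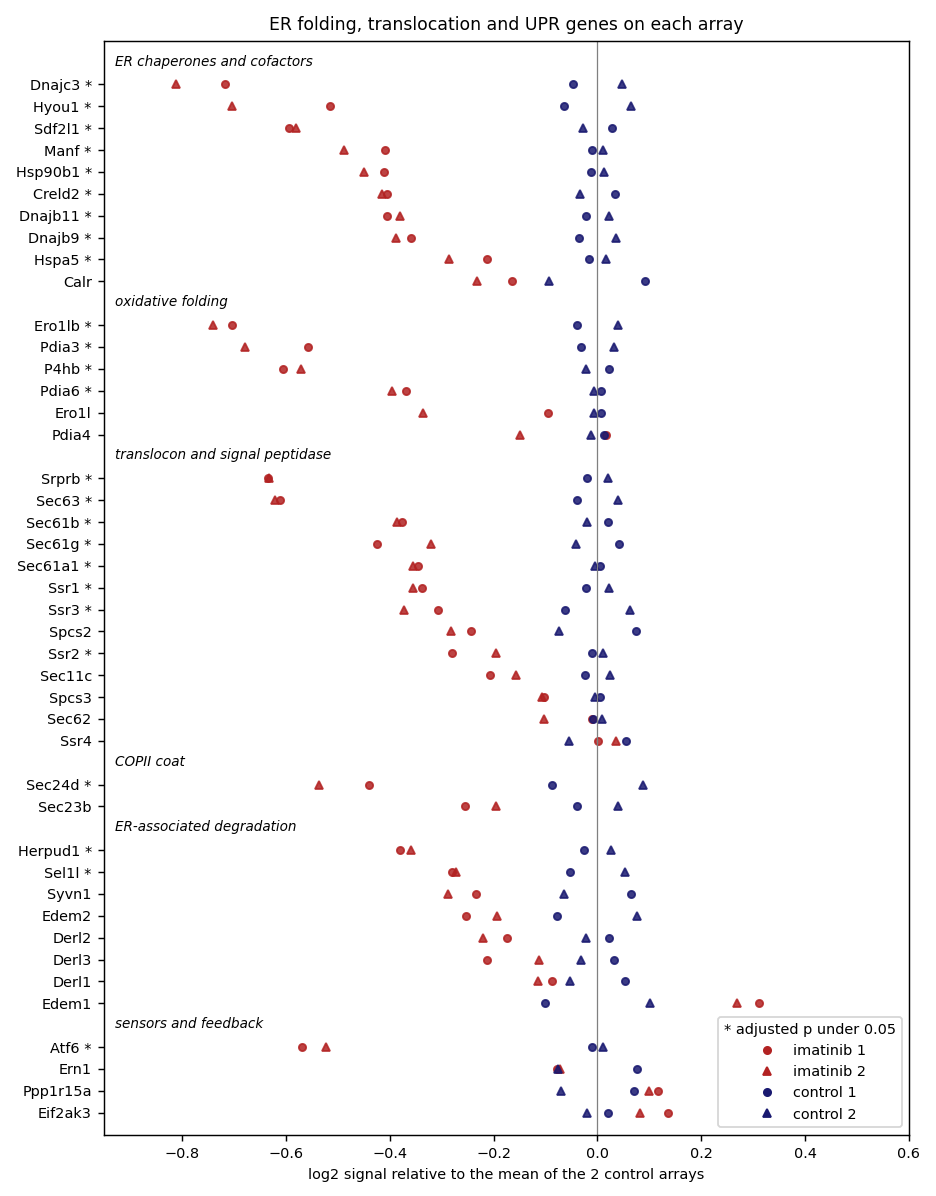
Log2 signal of each ER gene on each of the 4 arrays (horizontal axis, relative to the mean of the 2 control arrays), in 6 groups by role; red marks imatinib, dark blue control, circles array 1 and triangles array 2, and an asterisk an adjusted p under 0.05 (limma). The red points lie to the left of the dark ones for 37 of 43 genes, among them all 10 chaperones and cofactors. The same holds for 37.2% of all genes tested.

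The number of calls depended on each array more than the sizes did. Without imatinib array 1 only Dnajc3 was called lower, without imatinib array 2 there were 7 (Atf6, Dnajc3, Ero1lb, P4hb, Sdf2l1, Sec63 and Srprb), without control array 2 there were 12 and without control array 1 there were 21. The share of all genes called lower fell too in these fits, to 2.22%, 5.46%, 12.03% and 15.0%. The median difference of the ER genes stayed between -0.34 and -0.31. The 25 genes called lower had 0.809 to 1.19 times their size with all arrays. Their sign could not turn in the 4 fits, since both imatinib arrays lay below both control arrays for each of them. Of the other scalings, those to the spike-in probes and to the median of all probes lower every gene. They could not turn the direction of genes called lower. Scaling to the spike-in control probes shifted the median of all genes tested by -0.27 and centring on the median of all probes by -0.19. The share of all genes called lower then rose to 44.9% and 35.3%, with 11.3% and 13.2% called higher, and of the ER genes 40 and 36 were lower and 0 higher. With the spike-in probes Edem1, Eif2ak3 and Ppp1r15a were the 3 ER genes not called. Relative to the median of all genes, the ER genes had a median of -0.35 under the main scaling. The spike-in scaling and the centring on all probes shift every gene of an array alike, so they cannot change that value. With quantile normalization, which does not shift every gene alike, it was -0.23. There 24 ER genes were called lower and 1 higher, beside 23.85% and 18.29% of all genes.

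**Figure D2:**
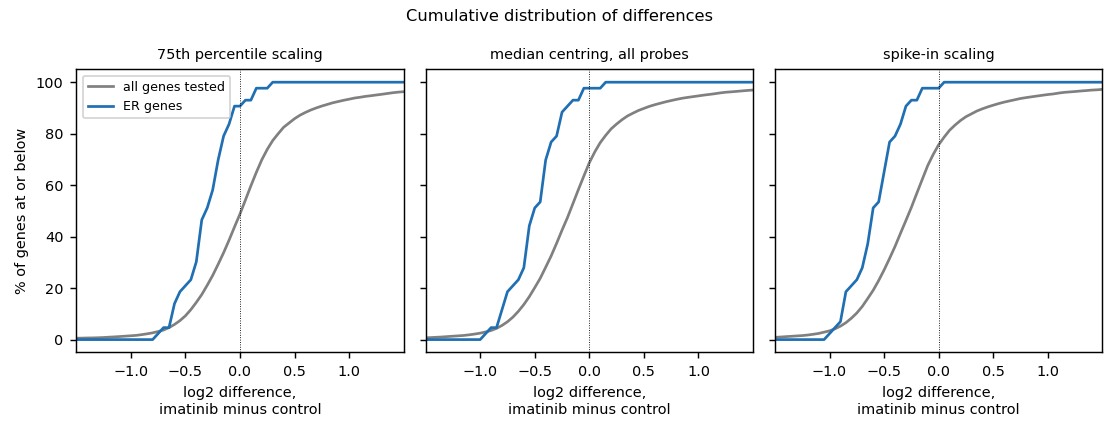
Share of genes (vertical axis, %) whose log2 difference, imatinib minus control, is at or below the value on the horizontal axis, for all 20544 genes tested (grey) and the 43 ER genes (blue), under 3 scalings. At a difference of 0 the share is 48.8% of all genes and 90.7% of ER genes with the 75th percentile, 68.7% and 97.7% with the median of all probes, and 75.7% and 97.7% with the spike-in probes.

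Among the chaperones and cofactors 9 of the 10 tested were lower, with a median difference of -0.42. Dnajc3, a co-chaperone of BiP, was at 0.40 and 0.31 with imatinib and at 1.07 and 1.17 in control. It fell the most of the 43 genes, by 0.76 (SE 0.07, adjusted p = 0.005), and was called lower under each of the 16 alternative settings. Hyou1, a large chaperone that also exchanges the nucleotide of BiP, was at -1.74 and -1.93 with imatinib and at -1.29 and -1.16 in control, a difference of -0.61 (SE 0.10, adjusted p = 0.014). Sdf2l1, which works with the BiP co-chaperones, was at 3.23 and 3.24 against 3.85 and 3.79, a difference of -0.59 (SE 0.06, adjusted p = 0.006). The groups did not overlap for these 3 genes, although the imatinib arrays of Hyou1 were spread more widely (SD 0.13) than those of the others. Both imatinib arrays lay below both control arrays for 37.2% of all genes.

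The differences of the other chaperones were smaller. Hsp90b1, the HSP90 of the ER, was at 6.72 and 6.68 with imatinib and at 7.12 and 7.14 in control, a difference of -0.43 (SE 0.06, adjusted p = 0.010). Hspa5, which encodes BiP, was at 6.44 and 6.37 with imatinib and at 6.64 and 6.67 in control. Its difference of -0.25 (SE 0.06, adjusted p = 0.041) was the smallest of the 9 chaperones called, and the call was lost without any 1 of the 4 arrays, where the adjusted p was 0.089 to 0.22. The remaining calls were Manf (-0.45), a secreted ER stress protein, Creld2 (-0.41), Dnajb11 (-0.39) and Dnajb9 (-0.37), both J-domain partners of BiP. The second Dnajb9 probe fell as well, by 0.50. Calr, a lectin chaperone that binds newly made glycoproteins, had a difference of -0.20 that did not pass (adjusted p = 0.15). Its membrane-bound partner Canx was not tested for the reason above. With the marked spots kept it was at 4.55 and 4.50 with imatinib and at 4.951 and 5.002 in control, a difference of -0.45 (SE 0.06, adjusted p = 0.010). Without imatinib array 1, imatinib array 2, control array 1 and control array 2 in turn, the number of chaperones called lower was 1, 2, 8 and 4.

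The promoters of several of these genes hold the ER stress response element (ERSE), the sequence through which ATF6 and XBP1, together with NF-Y, act on chaperone genes. The RefSeq table of mouse promoters (GRCm38.p6) holds 32851 promoters of 300 bases, which run from 250 bases before the transcription start to 50 after it. It had an entry for 37 of the 45 ER genes, and none for Hyou1, Manf, Sec61a1, Ssr2, Spcs3, Sec11c, Derl1 and Atf6. The element searched was CCAAT, then any 9 bases, then CCACG, on both strands. It was found in 39 promoters, 0.119% of the table, which belong to 37 genes, and 10 of these genes are ER genes of the set: Calr, Canx, Creld2, Derl3, Dnajc3, Ero1lb, Hsp90b1 (with 2 matches), Hspa5, Pdia6 and Syvn1. The 6 of them that were called lower are shown, to show the sequence these genes share, each as a window of 55 bases upstream of the start, 5′ to 3′ on the strand of the gene, with the match in capitals. Where the element lies on the other strand, its capitals begin with CGTGG and end with ATTGG.
Dnajc3 (chr14:118937809-118937863, plus strand): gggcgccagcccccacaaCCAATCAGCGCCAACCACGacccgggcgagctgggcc
Ero1lb (chr13:12565664-12565718, plus strand): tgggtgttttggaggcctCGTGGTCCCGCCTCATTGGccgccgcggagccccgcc
Hsp90b1, farther from the start (chr10:86705620-86705674, minus strand): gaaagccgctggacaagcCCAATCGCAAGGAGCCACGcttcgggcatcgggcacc
Hsp90b1, nearer to the start (chr10:86705515-86705569, minus strand): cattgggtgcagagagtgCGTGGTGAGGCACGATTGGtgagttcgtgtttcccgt
Creld2 (chr15:88819502-88819556, plus strand): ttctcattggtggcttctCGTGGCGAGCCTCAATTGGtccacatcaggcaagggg
Pdia6 (chr12:17266473-17266527, plus strand): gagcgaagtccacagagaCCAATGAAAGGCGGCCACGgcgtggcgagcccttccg
Hspa5 (chr2:34772007-34772061, plus strand): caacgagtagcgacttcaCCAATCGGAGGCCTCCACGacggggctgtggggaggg

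Of the 9 ER genes tested that hold it, 6 were lower, with a median difference of -0.38, and of the 26 tested with a promoter but no match 14 were lower, with a median of -0.31. The difference between these groups was not tested. Genes with a match that did not pass were Calr (-0.20), Derl3 (-0.16) and Syvn1 (-0.26). 2 further elements of the response were searched on both strands. ERSE-II, which is ATTGG, 1 base, then CCACG, was found in 12 promoters (0.0365%), among them those of Herpud1 and Dnajb11, both of which were lower. The element that XBP1 binds alone, TGACGTGG, was found in 222 promoters (0.676%), among the ER genes in Sec24d alone, which was lower. A match is a description of the letters only. The match of Dnajb11 lies after the start of transcription and is not shown, and the windows of Herpud1 and Sec24d are given in the same way.
Herpud1 (chr8:94386359-94386405, plus strand): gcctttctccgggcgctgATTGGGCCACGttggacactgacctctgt
Sec24d (chr3:123267452-123267495, plus strand): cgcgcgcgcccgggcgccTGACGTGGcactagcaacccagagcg

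Oxidative folding, in which ERO1 enzymes pass electrons from protein disulfide isomerases to oxygen, had 4 of 6 genes lower and a median difference of -0.49. Ero1lb, the ERO1 isoform known from secretory cells, was at 1.37 and 1.33 with imatinib and at 2.03 and 2.11 in control, a difference of -0.72 (SE 0.06, adjusted p = 0.004). Its relative Ero1l had a difference of -0.22 that did not pass (adjusted p = 0.17), with imatinib arrays of -2.50 and -2.75 and an SD of 0.17 between them. The isomerase Pdia3, which works with calreticulin and calnexin on glycoproteins, was at 2.68 and 2.56 against 3.21 and 3.27 in control, a difference of -0.62 (SE 0.07, adjusted p = 0.008). P4hb, the classical protein disulfide isomerase, was at 2.57 and 2.60 against 3.20 and 3.15, a difference of -0.59 (SE 0.06, adjusted p = 0.006). Both isomerases were lower on each imatinib array than on each control array, as were 37.2% of all genes. Pdia6, a further isomerase, was at 6.87 and 6.84 against 7.24 and 7.23, a difference of -0.38 (SE 0.06, adjusted p = 0.012), and its second probe gave -0.68 (adjusted p = 0.004). Pdia4 was the isomerase whose groups overlapped: it was at 3.14 and 2.98 with imatinib and at 3.14 and 3.12 in control, a difference of -0.07 (adjusted p = 0.55). The number of these genes called lower was 0 without imatinib array 1, 2 without imatinib array 2, and 4 without control array 1 or control array 2.

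At the translocon and the signal peptidase 8 of the 13 genes tested were lower, with a median difference of -0.34. The 3 subunits of the SEC61 channel fell by like amounts. Sec61b was at 6.47 and 6.46 with imatinib and at 6.87 and 6.83 in control, a difference of -0.38 (SE 0.06, adjusted p = 0.013), and Sec61g was at 6.57 and 6.68 against 7.04 and 6.96, a difference of -0.37 (SE 0.07, adjusted p = 0.022). Sec61a1, which encodes the pore itself, had a difference of -0.35 (adjusted p = 0.014). The brightest Sec61b probe holds a repeat of a short unit over at least 12 bases, the 1 such probe among 55 tested for the ER genes, and the other Sec61b probe, without a repeat, gave -0.36 (adjusted p = 0.013). The greatest falls here were in partners of the channel. Srprb, the membrane anchor of the receptor that docks ribosomes, was at -0.38 and -0.37 with imatinib and at 0.24 and 0.28 in control, a difference of -0.63 (SE 0.06, adjusted p = 0.005). Sec63, which recruits BiP to the channel, was at -0.33 and -0.34 against 0.24 and 0.32, a difference of -0.62 (SE 0.06, adjusted p = 0.006). For Srprb a second probe gave a smaller fall of -0.28 (adjusted p = 0.048), and for Sec63 a second probe gave -0.37 and did not pass (adjusted p = 0.086).

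The translocon-associated protein complex (Ssr1 to Ssr4), which helps some precursors into the channel, was lower in 3 of 4 subunits. Ssr1 had a difference of -0.35 (adjusted p = 0.016) and of -0.57 on its other probe tested, and a brighter probe left out for marked spots gave -0.28 with them kept. Ssr3 had a difference of -0.34 (adjusted p = 0.030) and Ssr2 of -0.24 (adjusted p = 0.049), and the Ssr2 call was lost with quantile normalization (-0.14, adjusted p = 0.14). The Ssr3 call was lost with quantile normalization as well (-0.24, adjusted p = 0.068) and with the mean over its probes (-0.25, adjusted p = 0.081), and the second Ssr3 probe gave -0.15 (adjusted p = 0.34) with overlapping groups. Ssr4 was the exception, with imatinib arrays at 5.24 and 5.28, control arrays at 5.30 and 5.19, and a difference of 0.019 (adjusted p = 0.85). Under the spike-in scaling, which lowers every gene, Ssr4 was at -0.26 (adjusted p = 0.039). The tested genes of the set for the signal peptidase, which cuts off the signal peptide, gave no call under the settings used throughout. Its subunit Sec11a, outside the set, was called lower (-0.32, adjusted p = 0.018). Spcs2 and Sec11c were called lower with normexp, with either median centring, with the spike-in scaling and with the variance model with trend, Spcs2 also with the deposited table, and Spcs3 with the spike-in scaling and the median of all probes. The differences were -0.26 for Spcs2 (adjusted p = 0.060), -0.18 for Sec11c, a catalytic subunit, and -0.10 for Spcs3 (adjusted p = 0.21). The 2 probes of Spcs2 had opposite signs, the second at 0.29, and neither passed. Spcs1, with the marked spots kept, had a difference of -0.14 (adjusted p = 0.18). Sec62, a partner of SEC63 at the channel, was at 2.59 and 2.50 with imatinib and at 2.59 and 2.61 in control (-0.06, adjusted p = 0.53). Without imatinib array 1, imatinib array 2, control array 1 and control array 2 in turn, the number of translocon and peptidase genes called lower was 0, 2, 6 and 3.

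The COPII coat, which buds vesicles from the ER, was represented by its cargo adaptor Sec24d and the inner coat protein Sec23b. Sec24d was at -1.45 and -1.55 with imatinib and at -1.10 and -0.92 in control, a difference of -0.49 (SE 0.09, adjusted p = 0.019). Sec23b had a difference of -0.23 that did not pass (adjusted p = 0.060), although it did with normexp, either median centring, the spike-in scaling and the variance model with trend. The Sec24d call held without control array 1 and was lost without each of the other 3 arrays.

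ER-associated degradation had 2 of 8 genes lower, a share close to the 21.7% of all genes, and a median difference of -0.21. The number lower was 4 with normexp or median centring, 6 with the variance model with trend and 7 with the spike-in scaling or the median of all probes. Herpud1, a membrane protein of the degradation complex and a stress-induced gene, was at 4.13 and 4.15 with imatinib and at 4.49 and 4.54 in control, a difference of -0.37 (SE 0.06, adjusted p = 0.014). Sel1l, the scaffold of the ubiquitin ligase, had a difference of -0.28 (adjusted p = 0.038). Syvn1, the ligase itself, was at 5.94 and 5.89 against 6.24 and 6.11, a difference of -0.26 that did not pass (SE 0.07, adjusted p = 0.056). The groups did not overlap for any of these 3 genes. Of all genes tested, 37.2% were likewise lower on both imatinib arrays than on both control arrays. The derlins, proposed to form the exit channel, had differences of -0.10 (Derl1), -0.20 (Derl2) and -0.16 (Derl3) on their brightest probes, none of which passed. Derl1 and Derl2 had probes of both signs, and 1 of the 3 Derl2 probes was called lower (-0.27, adjusted p = 0.025). The EDEM proteins trim mannose from glycans of misfolded proteins. Edem2 was at -0.93 and -0.87 against -0.76 and -0.60 in control (-0.22, adjusted p = 0.097), whereas Edem1 was at 2.38 and 2.34 against 1.97 and 2.17 (0.29, adjusted p = 0.071). Neither passed, and Edem1 was at 0.10 (adjusted p = 0.53) with the median of all probes and at 0.016 (adjusted p = 0.92) with the spike-in scaling. Without imatinib array 1, imatinib array 2 or control array 2 no degradation gene was called, and without control array 1 there was 1.

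Of the sensors, the RNA of Atf6 was called lower, and that of Ern1 was as well with the spike-in scaling but not with the 75th percentile. Atf6 was at -0.997 and -0.950 with imatinib and at -0.44 and -0.42 in control, a difference of -0.55 (SE 0.06, adjusted p = 0.006). Without imatinib array 1 the difference was -0.52 and did not pass (adjusted p = 0.071). Ern1 was at 0.017 and 0.023 with imatinib and at 0.17 and 0.018 in control, a difference of -0.07 (SE 0.08, adjusted p = 0.49), and its groups overlapped. Eif2ak3 was at 1.08 and 1.03 against 0.97 and 0.93 in control, a difference of 0.11 (SE 0.06, adjusted p = 0.22). Ppp1r15a, which brings a phosphatase to eIF2 and so ends the translation block, was at 2.75 and 2.73 against 2.71 and 2.57, a difference of 0.11 (SE 0.07, adjusted p = 0.31). Neither passed, and the sign of both turned with the scaling: with the spike-in probes Eif2ak3 was at -0.17 and Ppp1r15a at -0.17, and with the median of all probes they were at -0.077 and -0.080. These values are RNA levels and say nothing of how active the sensors were.

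A related list of 19 genes outside the set holds transcription factors of the response, targets of the PERK branch and kinases of eIF2, among others. It was mixed: 7 were higher, 5 were lower and 7 did not pass, with a median difference of 0.14. Across the array 19.5% of genes were called higher and 21.7% lower. Xbp1 was at 6.85 and 6.76 with imatinib and at 6.26 and 6.22 in control, a difference of 0.56 (SE 0.07, adjusted p = 0.007), so its RNA rose while 25 of the ER genes fell. It was at 0.29 with the spike-in scaling (adjusted p = 0.043), and without imatinib array 1 the call was lost (0.52, adjusted p = 0.073). The probe is not known to separate the spliced RNA, which makes the active factor, from the unspliced form. Ddit3, which encodes the stress factor CHOP, was at 0.22 and 0.30 against -0.38 and -0.40 in control, a difference of 0.65 (SE 0.06, adjusted p = 0.005), and was at 0.69 (adjusted p = 0.052) without imatinib array 1. Both groups were tight and far apart for Xbp1 and Ddit3. Nfe2l2, a factor of the oxidative stress response that PERK also acts on, was at 1.08 and 0.95 against 0.35 and 0.43, a difference of 0.62 (SE 0.08, adjusted p = 0.008), lost without imatinib array 1 (0.55, adjusted p = 0.071).

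Atf4, the factor that links PERK to Ddit3, was at 1.62 and 1.65 with imatinib and at 1.88 and 2.03 in control, a difference of -0.32 (SE 0.08, adjusted p = 0.036). That call was not stable. With the marked spots kept, another probe stood for the gene and gave -0.033 (adjusted p = 0.68), the deposited values gave -0.043 (adjusted p = 0.59), and quantile normalization gave -0.24 (adjusted p = 0.069). It was also lost without imatinib array 1 (-0.31), imatinib array 2 (-0.34) or control array 2 (-0.25). Trib3 and Chac1, targets of ATF4 and CHOP that were picked out after their values were seen, rose under the main scaling: Trib3 was at 2.72 and 2.63 against 2.21 and 2.02 (0.56, adjusted p = 0.014), and Chac1 at 2.80 and 2.78 against 2.34 and 2.39 (0.43, adjusted p = 0.010). With the spike-in scaling they were at 0.29 (adjusted p = 0.057) and 0.15 (adjusted p = 0.18), and with the median of all probes at 0.37 (adjusted p = 0.027) and 0.24 (adjusted p = 0.089). Without imatinib array 1 the adjusted p was 0.10 for Trib3 and 0.095 for Chac1, and without imatinib array 2 it was 0.065 and 0.071. Among the lower genes were Eif2ak2 (-0.56), a kinase of eIF2 that senses viral RNA, and Eif2s1 (-0.56), the eIF2 subunit that these kinases modify. The ATF6 relative Atf6b was lower too, at -0.44 and -0.43 with imatinib and -0.03 and 0.07 in control (-0.46, adjusted p = 0.011). In the same list Creb3l1 (0.52, adjusted p = 0.011) and Mbtps2 (0.25, adjusted p = 0.049) were called higher. Creb3, Creb3l2 and Mbtps1 did not pass.

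**Figure D3:**
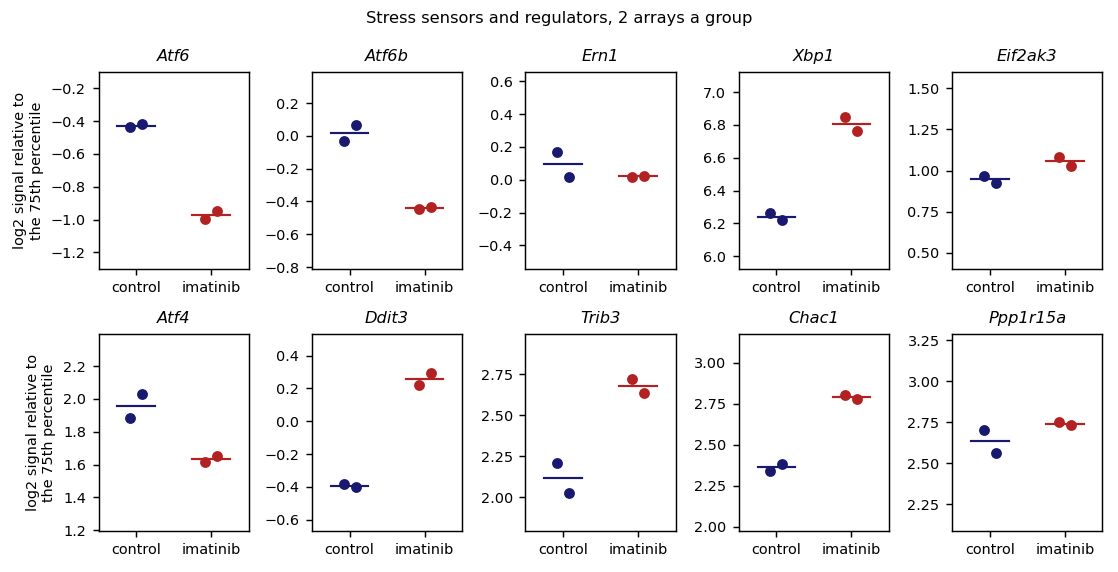
Log2 signal relative to the array's 75th percentile (vertical axis, all panels spanning the same range) for 10 sensors and regulators, with a point for each of the 2 control and 2 imatinib arrays and a line at the group mean. Xbp1, Ddit3, Trib3 and Chac1 are higher with imatinib, Atf6, Atf6b and Atf4 are lower, and Ern1, Eif2ak3 and Ppp1r15a differ by 0.11 or less.

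Other genes of the secretory pathway, in lists that share no gene with the 45, were lower in 6 of 15 cases for N-glycosylation and glycan trimming, 8 of 16 for signal recognition and other translocation, 7 of 19 for other ER-associated degradation, 10 of 26 for COPII and ER to Golgi transport and 6 of 23 for other folding enzymes and chaperones, beside 21.7% of all genes. Their median differences were -0.19, -0.24, -0.20, -0.21 and -0.07. Examples were Ostc (-0.56) and Mogs (-0.47), of the oligosaccharyl transferase and of glucose trimming. In signal recognition Tram2 fell by 0.66 and Srp9, of the signal recognition particle, by 0.57. Sar1b, the GTPase that starts the COPII coat, fell by 0.59 and the coat protein Sec13 by 0.53. In degradation Selk fell by 0.44, and Ube2j1, a ubiquitin-conjugating enzyme, by 0.43, although another Ube2j1 probe was called in the opposite direction. In other folding Txndc11 fell by 0.72 and Nucb2 by 0.60. Calls in the higher direction were Qsox1 (0.62), a sulfhydryl oxidase, among the folding genes, and Kdelr3 (0.23), a receptor that returns ER proteins, which was at -0.047 with the spike-in scaling. No gene of the other 3 lists was called higher, beside 19.5% of all genes.

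**Figure D4:**
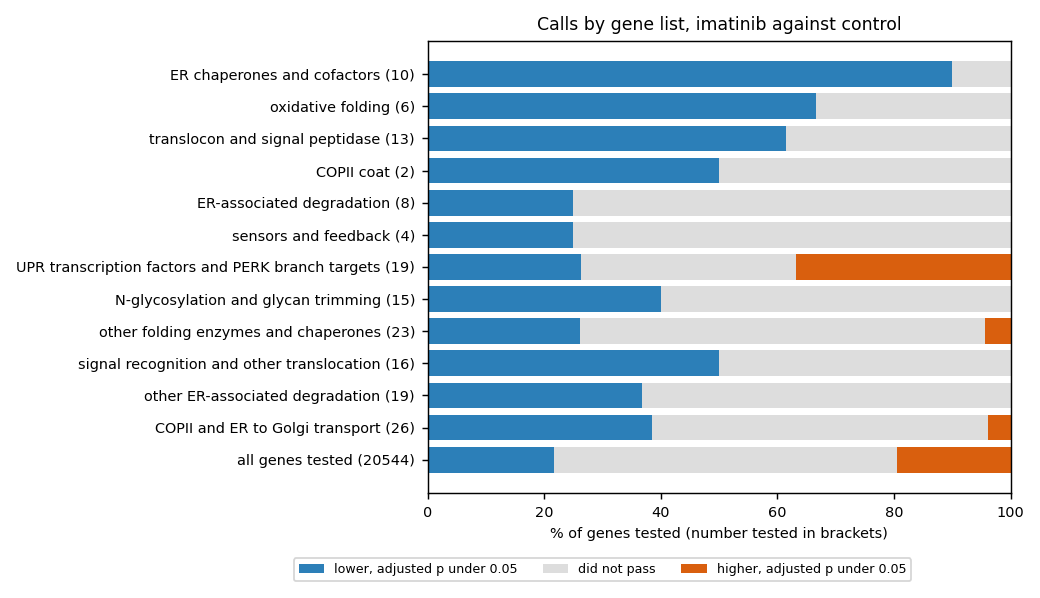
Share of tested genes (horizontal axis, %) called lower (blue), called higher (orange) or not passing (grey) in each of the 6 role groups of ER genes, in 6 related lists and among all 20544 genes tested, with the number tested in brackets. The blue share runs from 9 of 10 chaperones to 1 of 4 sensors, beside 21.7% of all genes. The largest orange share (7 of 19) is that of the list of unfolded protein response transcription factors and PERK branch targets.

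Many ER genes had a high signal and were therefore also set beside other genes of high signal. Among the 2055 genes in the top 10% by signal, 538 were lower and 231 higher, with a median difference of -0.025. Of the 15 ER genes among them, 10 were lower and 0 higher, with a median of -0.35.

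RNAs of cell type markers differed between the groups, and markers of a type did not always move together. They are set beside 19.5% higher and 21.7% lower of all genes. Of 12 B cell markers tested, 2 were higher and 6 lower with imatinib (median -0.16), with Cd22 at -1.048 but Faim3 at 2.55 and Cr2 at 0.54, and their linear signal summed to 605 and 619 with imatinib and to 653 and 606 in control. Of 10 plasma cell markers, 4 were higher and 2 lower (median 0.0028), with a summed signal of 392 and 389 against 361 and 364, and this list shares Xbp1 and 2010001M09Rik with the related lists above. The lower ones were Igj (-0.85), the joining chain of secreted antibody, and Tnfrsf17 (-0.70), a receptor of plasma cells, whereas Prdm1, a factor that drives plasma cell formation, was at 0.26 and Sdc1, a plasma cell surface protein, at -0.04. Of 14 T cell markers, 12 were higher and 0 lower (median 1.39), with a summed signal of 55.1 on both imatinib arrays against 27.4 and 26.3 in control. Of 9 macrophage markers tested, 5 were higher and 0 lower (median 0.52), at 5.60 and 5.93 against 3.55 and 3.47. C1qa, C1qc, Fcgr1 and Mertk had no probe that was tested. For other cell types, the numbers higher and lower were 4 and 1 of 6 neutrophil markers, 3 and 1 of 5 NK cell markers, 1 and 2 of 5 dendritic cell markers, 3 and 1 of 4 mast cell and basophil markers, and 2 and 0 of 5 erythroid and platelet markers. Of the markers called higher, Itgax, Cpa3 and Mcpt8 were well above background on 2 imatinib and 0 control arrays, and S100a9 on 2 and 1. They were tested only through the group where they are high, so these calls say little beyond that. Among the defining markers Ncr1, Klrb1c, Xcr1, Clec9a, Fcer1a and Ms4a2 had no probe that was tested. The part of these shifts in the lower ER genes was not tested.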

How the data were processed

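The deposited scanner files hold the fluorescence intensity of each spot on 4 Agilent 1-colour (Cy3) arrays, extracted by the authors in Feature Extraction version 9.1.3.1, per the file headers. That signal (the processed signal) had its background subtracted and was detrended array by array, without scaling between arrays. A deposited value table holds log2 values that the authors made in GeneSpringGX, per the series' design text. Each of its columns matched log2 of the processed signal minus a constant within 0.01 for 99.88% to 99.93% of probes, and the column medians were -4.00 and -3.92 (imatinib) and -4.10 and -4.17 (control). Other parameters of that software are not given in the sources used here.

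Levels were recomputed from these files. Control spots and spots marked as outliers were left out, log2 processed signals of spots of a probe were averaged, and the 75th percentile of the non-control spots was subtracted (linear signals of 699, 678, 739 and 854). A probe was tested if both arrays of 1 group or of both had it well above background, and 92 probes were left out for marked spots. Groups were compared with limma 3.58.1 in R 4.3.3 (lmFit and eBayes, two-sided, group as the only term, 2 residual and 2.05 prior degrees of freedom, prior SD 0.079), with Benjamini-Hochberg adjustment over 25375 probes. The code was tested on simulated data. Sequences are from the RefSeq promoter table. The 45 genes, the related lists and the marker lists were chosen with earlier results of these data known. Named in full by rule were genes called with a difference of at least 0.5, the 6 with the highest signal, the sensors, and Xbp1, Atf4 and Ddit3. Others given on all 4 arrays were outside that rule, such as Herpud1, Sec24d, Pdia4, Sec62, Ssr4, Edem1, Edem2, Canx and Atf6b. Trib3 and Chac1 were added after their values were seen, as were examples from the marker lists. Alternatives were another background correction, 4 scalings, 2 filters, the deposited table, another variance model, marked spots kept, the mean over probes, a replicate block and each array left out.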

Additional observations from a re-analysis of the deposited data

How the results depend on the processing

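The number of ER genes called lower, 25, was 40 with spike-in scaling, 8 with no filter on dim probes and 1 to 21 with an array left out (lowest without imatinib array 1). With the replicate number as a block it was 16. Same-numbered arrays did not deviate together (correlation of deviations -0.069), but this cannot tell if the numbers pair samples. The share of all genes called lower was 5.18% with no filter and 13.25% with the block, beside 21.7% under the settings used throughout. The number called higher, 0, was 1 (Edem1) with normexp background correction, with quantile normalization and with the variance model with trend. The median difference, -0.34, was -0.28 with normexp, -0.29 with quantile normalization and with the deposited table, -0.39 with median centring over tested probes, -0.61 with spike-in scaling and -0.28 with the mean over all probes of a gene. In settings chosen after seeing the data it was -0.28 with marked spots kept and -0.53 with centring on the median of all probes. With an array left out it was -0.34 to -0.31. Of all probes tested, 10622 changed, 4971 with no filter and 2529 to 8477 with an array left out. Ssr4 reversed to -0.26 and Kdelr3 to -0.047 with spike-in scaling. Differences that passed under neither setting also changed sign, those of Eif2ak3 and Ppp1r15a with spike-in scaling and the median of all probes, of Pdia4 and Sec62 with quantile normalization, of Ssr4 with both median centrings and of Spcs2 with the mean over probes. The causes were not tested. Without an array, the lone array of a group is assumed to vary like the other group. The 43 genes tested were well above background on all 4 arrays.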
